A study of Mus musculus with 8 samples.

Results

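The genes of the splicing machinery and its regulators were followed in ribosome-bound and total mRNA of the mouse ventral pallidum (VP). Members were the protein-coding genes whose symbols place them in the Srsf, Hnrnp, Sf3a, Sf3b, Snrp, Snrnp, U2af, Prpf, Celf, Nova, Elavl, Ptbp or Mbnl families, 89 of the 14353 genes in the table. They were sorted by symbol into 42 core spliceosome genes (Sf3a, Sf3b, Snrp, Snrnp, U2af and Prpf), 10 SR proteins (Srsf), 20 hnRNPs and 17 genes of the regulator families Celf, Nova, Elavl, Ptbp and Mbnl. All 89 were tested, and each was over 1 CPM (reads of a gene scaled to library size) in every library, so no member was lost to the filter on low values. Another 2 entries carried a matching symbol but were not protein-coding and were left out.

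All tissue came from untreated VGluT2-Cre x Rpl22 (RiboTag) mice, homozygous for VGluT2-Cre and heterozygous for the tagged Rpl22 allele. In these mice Cre is driven by the gene of vGluT2, Slc17a6, and adds a hemagglutinin (HA) tag to the ribosomal protein Rpl22, so beads carrying an antibody to HA collect ribosomes with their mRNA from vGluT2 cells (the TRAP fraction). The labels call the other fraction INPUT, total mRNA of the same homogenate, while the sequencing methods speak of unbound RNA. There were 4 pools of male and female mice, named VP1.6, VP2.2, VP2.6 and also VP2.11, with 1 library of each fraction per pool (n = 4 per fraction). By the labels a pool combined 7 to 11 animals (38 in total, 15 male and 23 female), aged 9 to 12 weeks in VP1.6 and 10 to 16 weeks in the other pools. The methods give other numbers of samples and mice and another age range, and the labels were followed here. The question put to each gene was whether its mRNA was more or less abundant on the tagged ribosomes than in the tissue.

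The tissue labels were checked against marker genes. Slc17a6 stood at 7.34, 7.02, 7.12 and 7.14 log2 CPM in TRAP and at 4.56, 3.85, 4.72 and 5.30 in INPUT. Neurod1 was also higher in TRAP, with a log2 fold change of 2.84 (limma adjusted p = 1e-05). All 4 pan-neuronal markers were called higher too, Stmn2 by 0.78, Tubb3 by 0.95, Syt1 by 1.06 and Snap25 by 1.93 log2 units. The summed level of 5 oligodendrocyte markers was 900 to 1630 CPM in TRAP and 3510 to 3810 CPM in INPUT, with 4 of the 5 called lower. For astrocytes the sums were 150 to 253 and 343 to 502 CPM, with 4 of 5 called lower, and for microglia 16.6 to 25.5 and 57.5 to 92.3 CPM, with 3 of 5 called lower and Tmem119 at or under 1 CPM in every TRAP library. Of 3 GABAergic markers 1 was called lower (Slc32a1), and the sums overlapped at 918 to 1570 CPM in TRAP and 584 to 1390 CPM in INPUT. That overlap came from VP2.2, with 1570 CPM in TRAP and 584 CPM in INPUT, and in the other 3 pools the sums were 918 to 1070 CPM in TRAP and 1210 to 1390 CPM in INPUT. Of the 5 endothelial markers 3 were analysed, and Flt1 was called higher, with sums of 6.85 to 37.5 CPM in TRAP and 2.33 to 6.53 CPM in INPUT. In these bulk libraries fewer cells of a type and less RNA per cell cannot be told apart, and the part that the loss of glial RNA has in the values that follow was not tested. Pool VP2.2 stood apart from the other pools in many members, and the calls without it are given beside the counts of each class.

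The spliceosome removes introns from pre-mRNA and is built stepwise from small nuclear ribonucleoproteins. In these a ring of Sm proteins and particle-specific proteins sit on a short nuclear RNA, and the Snrp genes encode proteins of both kinds. SR proteins and hnRNPs bind the transcript and help to decide which splice sites are used, often with opposed effects. Neurons add regulators of their own, among them the Nova, neuronal Elavl (Hu) and several Celf proteins, and they exchange Ptbp1 for its paralog Ptbp2 as they mature.

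Of the 89 members, 35 were called higher in TRAP and 10 lower, and 44 did not pass (limma with the pool as a block, adjusted p under 0.05 over 14249 genes). Among all genes tested, 15.4% were called higher and 16.8% lower. In 42 members all 4 TRAP values lay above all 4 INPUT values and in 17 they lay below, against 23.3% and 24.4% of all genes, and in the other 30 members the fractions overlapped. The median log2 fold change, TRAP over INPUT, was 0.38 over the members and -0.05 over all genes. A fit without the pool as a block called 44 members higher and 17 lower, where 23.2% and 24.8% of all genes were called, and it kept all 45 calls of the paired fit and added 16. Leaving out VP2.6 lowered the members called higher to 23 (10.7% of all genes), leaving out VP1.6 lowered the members called lower to 6 (11.7% of all genes), and leaving out VP2.2 gave 41 and 8 (14.9% and 14.3% of all genes).

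Calls were counted within each of the 4 classes. The hnRNPs had 12 of 20 members called higher and 0 lower (median 0.92 log2), or 16 and 0 without the block. The regulator families had 7 of 17 higher and 0 lower (median 0.38), or 9 and 1 without the block. The core spliceosome went both ways, with 16 of 42 higher and 8 lower (median 0.24), or 17 and 13 without the block, and the SR proteins had 0 of 10 higher and 2 lower (median -0.04), or 2 and 3 without the block. Without VP2.2 the core spliceosome had 19 higher and 6 lower, the hnRNPs 14 and 0, the regulator families 8 and 0 and the SR proteins 0 and 2. All 35 members called higher kept the call without that pool, and 6 gained it. Besides Celf4 and Snrpc, described with their families and pools, these were Hnrnpf (log2 fold change 0.69, limma adjusted p = 0.049), Hnrnpd (0.62, 0.039), Snrnp35 (0.73, 0.037) and Snrpb2 (0.52, 0.048). Without VP1.6 the core spliceosome fell to 8 higher and 4 lower and the hnRNPs to 9 and 0 (10.9% and 11.7% of all genes). Without VP2.6 they had 7 and 6, and 10 and 0 (10.7% and 12.1% of all genes). Without VP2.11 they had 10 and 7, and 11 and 1 (13.1% and 15.7% of all genes). The regulator families then had 7, 6 and 7 higher and 0 lower, and the SR proteins 0 higher. The trend of the log2 values on exon length was also taken out of each library. The regulator families then had 4 higher and 1 lower (median 0.11). The core spliceosome had 14 and 6, the hnRNPs 14 and 0 and the SR proteins 0 and 3. Of all genes 16.3% were then called higher and 14.9% lower. No difference between classes was tested, and these counts and medians describe the classes beside the shares over all genes.

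**Figure D1:**
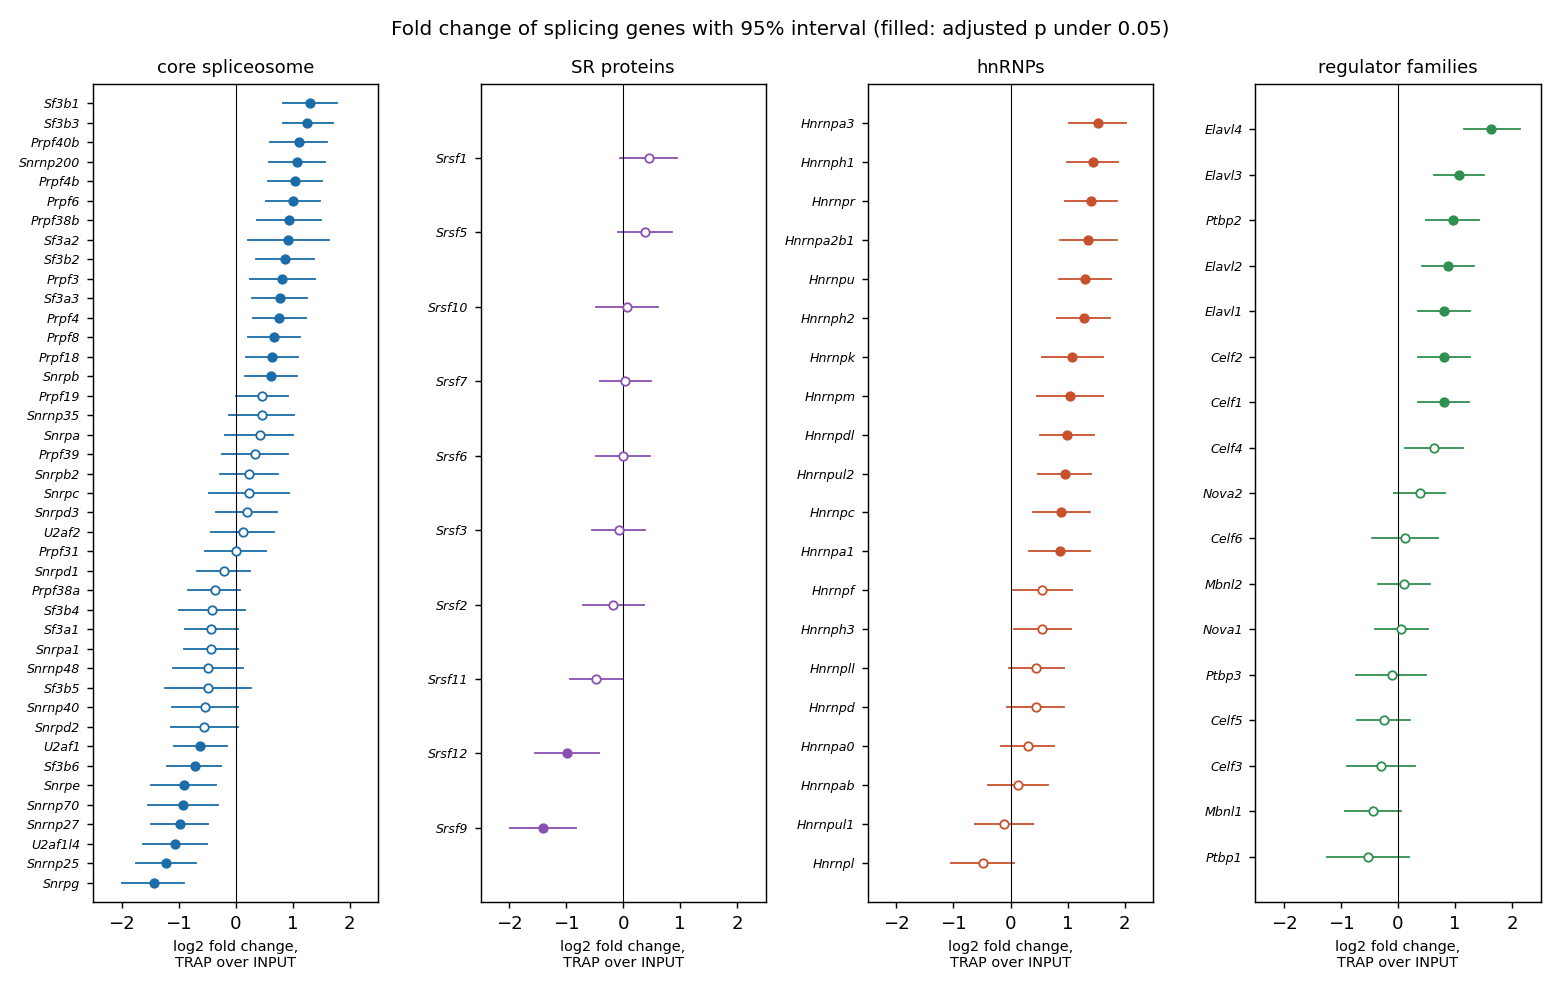
Log2 fold change of 88 of the 89 members, TRAP over INPUT, in 4 panels by class. Each point is the estimate from 4 pools and each bar its 95% interval, filled points have an adjusted p under 0.05 and open points do not. The hnRNP and regulator panels hold filled points only to the right of 0, from 0.81 (Celf1, Celf2 and Elavl1) to 1.64 (Elavl4), while the core spliceosome panel runs from 1.30 (Sf3b1) to -1.44 (Snrpg) with filled points at both ends.

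The Elavl genes encode RNA-binding Hu proteins that steer splicing and stabilize AU-rich mRNA, Elavl1 in most cells and Elavl2, Elavl3 and Elavl4 mainly in neurons. All 4 were called higher in TRAP, and all 4 had TRAP values above INPUT values in every library. Per-library values are given throughout as log2 CPM with the pools in the order in which they were named. Elavl4 (ENSMUSG00000028546, GRCm38 chr4:110203722-110351909) stood at 9.32, 8.64, 9.18 and 8.90 in TRAP and at 7.25, 7.31, 7.23 and 7.68 in INPUT. Its lowest TRAP value was above its highest INPUT value, and its log2 fold change of 1.64 ± 0.23 (SE, adjusted p = 0.00018) was the highest among the members. Elavl3 stood at 8.38, 8.18, 8.41 and 8.36 in TRAP and 7.32, 7.09, 7.22 and 7.42 in INPUT, a log2 fold change of 1.07 ± 0.21 (SE, adjusted p = 0.0015), and the 4 pools lay close together at 1.06, 1.09, 1.20 and 0.94. For Elavl2 the TRAP values were 7.38, 7.49, 7.47 and 7.83 and the INPUT values 6.88, 6.38, 6.76 and 6.63, a log2 fold change of 0.88 ± 0.22 (SE, adjusted p = 0.0068). Elavl1, the broadly expressed member, moved by 0.81 ± 0.21 (SE, adjusted p = 0.009), with 6.55, 6.51, 6.49 and 6.81 in TRAP and 5.83, 5.57, 5.88 and 5.83 in INPUT. With the trend of the log2 values on exon length taken out of each library, its log2 fold change was 0.41 and no longer called (limma adjusted p = 0.12).

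Ptbp2, the neuronal polypyrimidine tract binding protein that represses many exons until late in neuronal maturation, was also called higher. It stood at 7.53, 7.15, 7.33 and 7.80 in TRAP and 6.44, 6.55, 6.56 and 6.40 in INPUT, a log2 fold change of 0.96 ± 0.22 (SE, adjusted p = 0.0041), with no overlap between the fractions. Its paralog Ptbp1, which most non-neuronal cells use, stood at 2.57, 2.6, 2.16 and 3.29 in TRAP and 3.27, 3.20, 3.32 and 2.92 in INPUT. The log2 difference of -0.52 ± 0.34 (SE, adjusted p = 0.252) did not pass the test, with more in TRAP in VP2.11 and less in the other 3 pools. Ptbp3 stood at 4.04, 4.23, 3.37 and 4.00 in TRAP and 3.97, 3.76, 4.36 and 4.01 in INPUT and did not pass either (log2 difference -0.11 ± 0.29, SE, adjusted p = 0.797). Per kilobase of exon, Ptbp2 exceeded Ptbp1 by 3.56 to 4.22 log2 units in TRAP and by 2.22 to 2.53 in INPUT, so the lead of Ptbp2 was larger in TRAP in all 4 pools. About 20.7% of the exon bases of Ptbp1 overlap a gene on the other strand, and since the strand setting of the counting is not given in the sources used here, part of its count is uncertain.

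The Celf proteins bind GU-rich sequence and regulate splicing and mRNA decay, and 2 of the 6 genes were called higher. Celf1 stood at 7.81, 7.84, 7.79 and 7.97 in TRAP and 7.17, 6.74, 7.14 and 7.12 in INPUT, a log2 fold change of 0.81 ± 0.21 (SE, adjusted p = 0.0093). Celf2 stood at 8.92, 8.92, 8.98 and 9.05 in TRAP and 8.30, 7.92, 8.19 and 8.24 in INPUT, a log2 fold change of 0.81 ± 0.21 (SE, adjusted p = 0.011). Neither gene overlapped between the fractions, and within pools both were higher in TRAP by at least 0.62. Celf2 fell short without VP2.6 (limma adjusted p = 0.058), and with the exon length trend taken out its log2 fold change was 0.11 (adjusted p = 0.718) and that of Celf1 0.49 (adjusted p = 0.052). Celf4, one of the neuron-enriched members, had the highest level of the family per kilobase of exon (6.09 log2 CPM per kilobase in TRAP). It stood at 9.24, 8.89, 9.08 and 9.54 in TRAP and 8.51, 8.77, 8.62 and 8.34 in INPUT. Its fractions did not overlap, but the log2 difference of 0.63 ± 0.24 (SE, adjusted p = 0.057) missed the threshold, and it passed in the fit without the block (adjusted p = 0.01), with weights per library (0.014) and without VP2.2 (0.80, 0.012). The other 3 overlapped between the fractions and did not pass. Celf5 stood at 6.50, 6.36, 6.53 and 6.74 in TRAP and 6.74, 7.10, 6.72 and 6.57 in INPUT, and its interval ran from -0.72 to 0.22. Celf3 stood at 3.68, 3.38, 3.55 and 4.11 in TRAP and 3.93, 4.22, 3.99 and 3.77 in INPUT, with an interval of -0.89 to 0.30. Celf6 stood at 4.23, 3.93, 4.60 and 4.40 in TRAP and 4.15, 4.50, 3.87 and 4.11 in INPUT, with an interval of -0.45 to 0.71.

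The Nova proteins bind YCAY clusters and control exons of synaptic genes, and neither gene passed the test. Nova2 stood at 5.87, 5.82, 5.82 and 6.07 in TRAP and 5.51, 5.47, 5.57 and 5.52 in INPUT. These values did not overlap, the log2 difference was 0.38 ± 0.21 (SE, adjusted p = 0.186), and the fit without the block gave an adjusted p of 0.021 (limma), while 31.7% of its exon bases overlap a gene on the other strand. Nova1 overlapped between the fractions, with 6.11, 6.43, 6.16 and 6.40 in TRAP and 6.39, 5.95, 6.34 and 6.18 in INPUT and an interval of -0.41 to 0.53. The Mbnl proteins, whose loss to expanded CUG repeats underlies the missplicing of myotonic dystrophy, did not pass either. Mbnl1 stood at 6.77, 6.71, 6.29 and 6.77 in TRAP and 6.92, 7.11, 7.36 and 6.89 in INPUT, all TRAP values below all INPUT values (log2 difference -0.43 ± 0.23, SE, adjusted p = 0.154). It passed without the block (adjusted p = 0.042), with weights per library (log2 fold change -0.56, adjusted p = 0.03) and with the exon length trend taken out (-1.04, adjusted p = 0.0042). Mbnl2 overlapped, with 7.66, 7.81, 7.68 and 7.97 in TRAP and 7.79, 7.57, 7.78 and 7.56 in INPUT and an interval of -0.35 to 0.56. Mbnl3 was not analysed here.

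**Figure D2:**
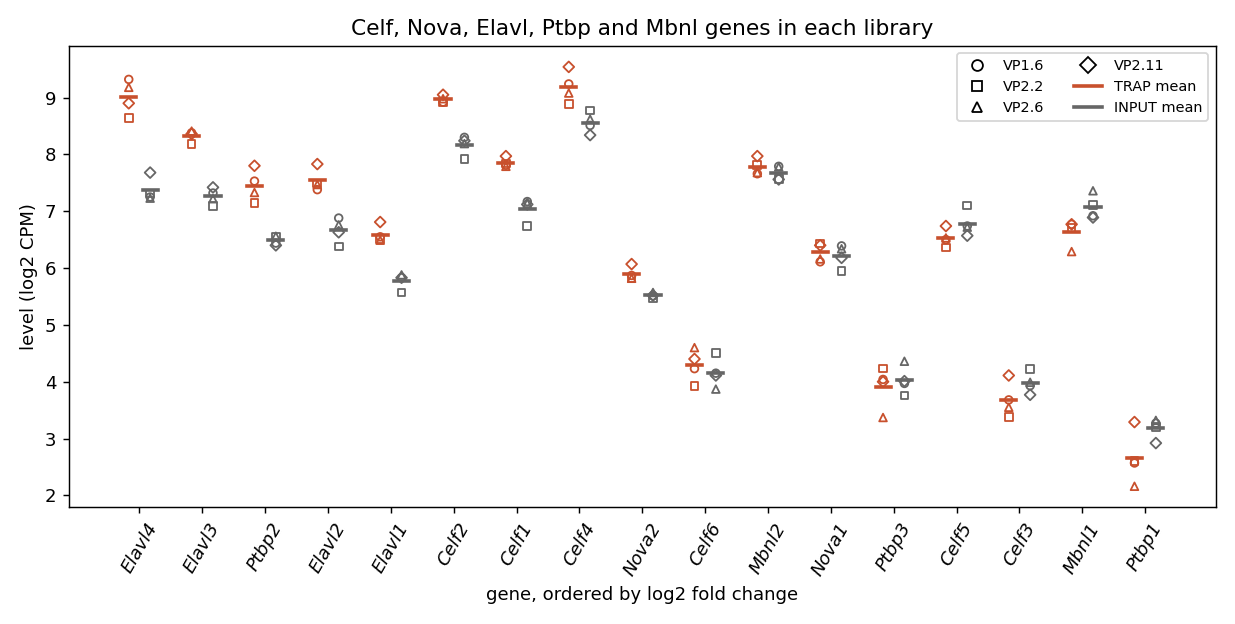
Level in log2 CPM of the 17 genes of the Celf, Nova, Elavl, Ptbp and Mbnl families in each of the 8 libraries, TRAP and INPUT side by side, ordered by log2 fold change. Markers give the pool and bars the mean of 4 libraries. From Elavl4 to Nova2 every TRAP marker lies above every INPUT marker, from Celf6 to Celf3 and in Ptbp1 the fractions overlap, and in Mbnl1 every TRAP marker lies below.

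The neuron-enriched regulators were set beside the core spliceosome. Of 10 such regulators (Nova1, Nova2, Elavl2, Elavl3, Elavl4, Celf3, Celf4, Celf5, Celf6 and Ptbp2), 4 were called higher and 0 lower, with a median log2 fold change of 0.50, and of 7 broadly expressed members of the same families 3 were higher and 0 lower, with a median of 0.10. Both medians lay above that of all genes and below the median of 1.01 of the 4 pan-neuronal markers. The share called higher was 40.0% in the neuron-enriched and 42.9% in the broad set. With the exon length trend taken out, the 3 broad calls (Celf1, Celf2 and Elavl1) were lost and Mbnl1 was called lower. Elavl2, Elavl3, Elavl4 and Ptbp2 kept their calls, and with the coding length trend taken out no call in either set changed. The neuron-enriched set had a median of 0.29 with the exon length trend taken out and 0.38 with a coding length trend taken out. The median difference of this set was 0.43, 0.42, 0.58 and 0.75 in the 4 pools, with an SD of 0.15 between pools, while that of the core spliceosome was 0.39, -0.34, 0.39 and 0.46, with an SD of 0.38. Per kilobase of exon, Elavl4 exceeded Elavl1 by 3.03 to 3.72 log2 units in TRAP and by 2.30 to 2.79 in INPUT. For Elavl2 over Elavl1 the ranges met, at 1.15 to 1.34 in TRAP and 1.12 to 1.37 in INPUT.

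The hnRNPs coat nascent transcripts and act in splicing, export and stability, and 12 of the 20 were called higher. The 4 with the largest fold changes had no overlap between the fractions. Hnrnpa3 (ENSMUSG00000059005) stood at 7.84, 7.34, 7.64 and 7.30 in TRAP and 5.86, 5.73, 5.95 and 6.46 in INPUT, a log2 fold change of 1.53 ± 0.23 (SE, adjusted p = 0.0003). Of the 75-base windows of its longest coding transcript 90.3% also occur in at least 1 of 37 other genes. A count of unique reads covers little of that transcript, which has 1654 bases where the gene has 5396 exon bases. The value of Hnrnpa3 is therefore uncertain. Hnrnph1, which binds G runs near splice sites, stood at 8.70, 8.40, 8.65 and 8.55 in TRAP and 7.18, 6.85, 7.12 and 7.40 in INPUT, a log2 fold change of 1.44 ± 0.21 (SE, adjusted p = 0.00025). Hnrnpr stood at 8.54, 8.06, 8.50 and 8.42 in TRAP and 6.94, 6.92, 6.86 and 7.15 in INPUT, a log2 fold change of 1.41 ± 0.21 (SE, adjusted p = 0.00029). Hnrnpa2b1, which also carries mRNA into processes of neurons and oligodendrocytes, stood at 10.60, 10.06, 10.42 and 10.50 in TRAP and 8.98, 9.01, 9.02 and 9.15 in INPUT, a log2 fold change of 1.36 ± 0.24 (SE, adjusted p = 0.00076). Within pools these 3 genes were higher in TRAP by 1.06 to 1.65 log2 units, and none of the 3 lost its call in any setting tried.

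The other 8 hnRNPs called higher were Hnrnpu (log2 fold change 1.31), Hnrnph2 (1.29), Hnrnpk (1.08), Hnrnpm (1.04), Hnrnpdl (0.99), Hnrnpul2 (0.95), Hnrnpc (0.89) and Hnrnpa1 (0.86). Hnrnpk, Hnrnpc and Hnrnpa1 lost their calls without VP1.6, with limma adjusted p of 0.056, 0.079 and 0.14, Hnrnpc and Hnrnpa1 also without VP2.6 (0.078 and 0.1), and Hnrnpm without VP2.11 (0.068) and with the exon or coding length trend taken out (0.056 and 0.054). The lowest hnRNP was Hnrnpl, whose TRAP level was below INPUT in 3 pools and above it in VP2.11 (differences -0.89, -1.21, -0.30 and 0.43), and it did not pass (-0.49, adjusted p = 0.161), but without VP2.11 it did (-0.80, 0.042). Per kilobase of exon, Hnrnpk, Hnrnpa2b1, Hnrnpc and Hnrnpa1 were ranks 1 to 4 of the 89 members in TRAP, at 7.80, 7.68, 7.47 and 7.24 log2 CPM per kilobase. In INPUT Hnrnpk was also rank 1 (6.72), followed by Snrnp27 (6.70) and Snrpe (6.63), which were ranks 17 and 18 in TRAP. These ranks depend on the length used, here all annotated exon bases of a gene, and 24.0% of the windows of Snrpe are shared with another gene. Parts of several hnRNPs recur elsewhere in the transcriptome, 46.4% of the windows of Hnrnpf, 44.4% of Hnrnpa1, 29.0% of Hnrnpk and 28.4% of Hnrnpm, which leaves their levels uncertain.

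SR proteins promote exon inclusion through exonic enhancers, and 8 of the 10 did not pass the test. Srsf9 (ENSMUSG00000029538) was lower, with 3.97, 3.60, 3.34 and 4.14 in TRAP and 5.17, 5.50, 5.22 and 4.76 in INPUT and a log2 fold change of -1.40 ± 0.27 (SE, adjusted p = 0.0016). Srsf12, a member that is thought to oppose the other SR proteins, was also lower, with 4.58, 4.46, 3.86 and 3.55 in TRAP and 4.96, 5.12, 5.30 and 5.00 in INPUT and a log2 fold change of -0.98 ± 0.26 (SE, adjusted p = 0.011). Both had no overlap between the fractions, Srsf9 kept its call in every setting tried, and Srsf12 lost it without VP2.6 (adjusted p = 0.078) and with the coding length trend taken out (-0.65, adjusted p = 0.066). The other 8 ran from -0.47 (Srsf11) to 0.45 (Srsf1), and these 2 passed in the fit without the block, Srsf11 with a limma adjusted p of 0.011 and Srsf1 with 0.044, as did Srsf5 (0.38, 0.044). With the coding length trend taken out, Srsf1 (0.81, limma adjusted p = 0.016) and Srsf5 (0.70, 0.018) were called higher and Srsf11 lower (-0.56, 0.04), so that the SR proteins had 2 of 10 higher and 2 lower. The interval of the founding member Srsf1 ran from -0.05 to 0.94 and that of Srsf7 from -0.40 to 0.49. Windows shared with other genes made up 25.2% of Srsf3 and 23.7% of Srsf5, and 25.3% of the exon bases of Srsf2 overlap a gene on the other strand.

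The core spliceosome genes were then counted by particle. Of the 13 Prpf genes 9 were higher and 0 lower (median 0.76), and of 8 proteins of the U4/U6.U5 tri-snRNP 5 were higher and 1 lower (median 0.72), where 15.4% of all genes were higher and 16.8% lower. These sets share 5 genes, Prpf3, Prpf4, Prpf6, Prpf8 and Prpf31, of which 4 were higher and stand in both counts. Of 11 U2 snRNP proteins, which recognize the branch point, 5 were higher and 1 lower (median 0.24). The Sm ring had 1 of 6 higher and 2 lower (median -0.37), the U1 snRNP 0 of 3 higher and 1 lower (0.24), the U11/U12 particle of minor introns 0 of 3 higher and 1 lower (-0.48), and U2AF, which binds the 3′ splice site, 0 of 3 higher and 2 lower (-0.62). Snrpf and Snrpn of the Sm ring were not analysed here.

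Among the core genes the largest rise was that of Sf3b1 (ENSMUSG00000025982, chr1:54985169-55027481), the U2 subunit that clamps the branch point helix. It stood at 8.96, 8.58, 8.96 and 8.62 in TRAP and 7.46, 7.29, 7.35 and 7.81 in INPUT, a log2 fold change of 1.30 ± 0.22 (SE, adjusted p = 0.00069). Its partner Sf3b3 stood at 7.13, 6.93, 7.05 and 7.27 in TRAP and 5.86, 5.57, 5.88 and 6.02 in INPUT, a log2 fold change of 1.26 ± 0.20 (SE, adjusted p = 0.00049). Within pools the difference of Sf3b3 stayed between 1.17 and 1.36, the narrowest spread of the core genes named here. Prpf40b, a U1-associated factor, stood at 5.31, 5.17, 5.41 and 5.94 in TRAP and 4.35, 4.32, 4.30 and 4.43 in INPUT (1.11 ± 0.23, SE, adjusted p = 0.0027). None of these 3 genes overlapped between the fractions, and all 3 kept their calls in every setting tried. Prpf8, the scaffold at the catalytic centre, and Snrnp200, the helicase that unwinds U4 from U6, were called higher by 0.67 and 1.08 log2 units, and both lost the call with the coding length trend taken out. Prpf8 also lost it with quantile normalization (limma adjusted p = 0.073) and with the exon length trend taken out (0.104). It fell short as well without VP1.6 (0.067), VP2.6 (0.121) or VP2.11 (0.051).

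At the other end stood small subunits. Snrpg (ENSMUSG00000057278, chr6:86371304-86379328), which encodes the SmG protein of the Sm ring, had 4.99, 4.96, 5.51 and 4.96 in TRAP and 6.66, 7.11, 6.16 and 6.27 in INPUT, a log2 fold change of -1.44 ± 0.25 (SE, adjusted p = 0.00081). Every TRAP value was below every INPUT value, by 0.65 in VP2.6 and by 2.15 in VP2.2. Snrnp25 of the U11/U12 particle stood at 4.78, 4.37, 4.83 and 4.38 in TRAP and 5.77, 6.29, 5.63 and 5.57 in INPUT (-1.22 ± 0.24, SE, adjusted p = 0.002). U2af1l4, a paralog of the small U2AF subunit, stood at 5.24, 4.81, 5.45 and 5.26 in TRAP and 6.19, 6.90, 5.98 and 5.93 in INPUT (-1.06 ± 0.26, SE, adjusted p = 0.0073), but 97.2% of its windows and 65.6% of its exon bases on the same strand are shared with another gene, so its value is uncertain. Snrnp27 of the tri-snRNP stood at 6.52, 6.45, 6.78 and 6.62 in TRAP and 7.54, 8.16, 7.30 and 7.30 in INPUT (-0.98 ± 0.24, SE, adjusted p = 0.0058). In all 4 genes the difference was largest in VP2.2, and each kept its call when any 1 pool was left out. None of these 4 calls remained with the coding length trend taken out. Also called lower were Snrnp70 (-0.93), which encodes the U1 70K protein, Snrpe (-0.91, with 24.0% of windows shared), Sf3b6 (-0.72) and U2af1 (-0.62, with 53.9% of windows shared). Each of these 4 lost its call without at least 1 pool, and with VP2.2 left out Snrpe had -0.57 (limma adjusted p = 0.054) and U2af1 -0.53 (0.063).

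The coding sequence of Snrpg is printed as the shortest coding part among the members called lower, and 1 promoter each of Snrpg and Elavl4, the members with the largest fall and the largest rise, for the motif shares given after them. The coding sequence holds 228 bases, 76 codons without the stop codon, and comes from GENCODE release M21, from a transcript of 1055 bases, with the start codon in capitals. Not every member called lower is short, since Snrnp70 has 1344 coding and 7618 exon bases. The promoter windows are RefSeq entries (GRCm38.p6) from 250 bases before to 50 bases after a start site, chr6:86371290-86371589 on the plus strand for Snrpg and chr4:110351862-110352161 on the minus strand for Elavl4, the first of 4 windows listed for that gene. Capitals mark CCGGAAG and the CCAAT box, which reads ATTGG on the other strand.
Snrpg coding: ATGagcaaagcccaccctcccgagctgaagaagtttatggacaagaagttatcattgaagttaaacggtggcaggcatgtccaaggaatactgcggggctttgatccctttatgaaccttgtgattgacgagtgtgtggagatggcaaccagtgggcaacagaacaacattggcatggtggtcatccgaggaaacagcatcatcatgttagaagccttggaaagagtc
Snrpg promoter: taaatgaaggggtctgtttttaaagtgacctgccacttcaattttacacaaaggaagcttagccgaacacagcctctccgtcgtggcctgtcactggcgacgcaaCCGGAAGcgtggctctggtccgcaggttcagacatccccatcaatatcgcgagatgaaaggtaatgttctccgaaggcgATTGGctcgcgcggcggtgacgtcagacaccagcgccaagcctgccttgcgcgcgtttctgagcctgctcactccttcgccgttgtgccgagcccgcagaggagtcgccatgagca
Elavl4 promoter: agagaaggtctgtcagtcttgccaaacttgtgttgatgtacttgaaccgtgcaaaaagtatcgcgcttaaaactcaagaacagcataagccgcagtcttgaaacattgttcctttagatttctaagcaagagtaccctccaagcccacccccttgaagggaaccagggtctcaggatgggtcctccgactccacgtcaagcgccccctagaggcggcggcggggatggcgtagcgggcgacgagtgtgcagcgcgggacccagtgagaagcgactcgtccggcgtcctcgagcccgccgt
The Snrpg window holds 1 CCGGAAG, the core letters bound by ETS factors, and 1 CCAAT box, and the Elavl4 window holds neither. RefSeq windows were found for 77 of the 89 members, 117 windows in all. They were searched on both strands for CCGGAAG, for the CCAAT box and for the TATAAA box. A window with 1 or more matches to a motif was counted 1 time for it. CCGGAAG was in 17 of 40 core spliceosome windows (42.5%), in 36.4% of the SR protein windows, in 14.8% of the hnRNP windows and in 0 of 39 windows of the regulator families, against 8.86% of all 32851 windows and 16.1% of the windows of tested genes. CCAAT was in 63.0% of the hnRNP windows, 51.3% of the regulator windows, 40.0% of the core windows and 36.4% of the SR protein windows, against 37.4% of all windows and 37.6% of those of tested genes. TATAAA was in 10.3% of the members' windows, against 13.6% of all windows and 7.37% of those of tested genes. Windows of 1 gene can overlap, and a match describes the letters alone.

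Fold change and coding length went together in the core spliceosome. Across its 42 genes Spearman's rho between log2 fold change and the longest annotated coding length was 0.79, against 0.48 over all tested genes and 0.54 over the members, a description across genes that share the same 8 libraries. The rho was 0.12 in the SR proteins (n = 10), 0.17 in the hnRNPs (n = 20) and -0.31 in the regulator families (n = 17). With the core genes divided into 3 equal sets, the 14 of shortest coding length (under 727 bases) had 1 member higher and 7 lower (median -0.58), the middle 14 had 4 higher and 1 lower (0.06), and the 14 of longest coding length (1565 bases or more) had 11 higher and 0 lower (0.97). Over all tested genes within the same bounds, 1.91% of the shortest were higher and 40.7% lower (median -0.63), 11.5% and 14.5% of the middle set (-0.08), and 27.9% and 4.16% of the longest (0.38). Of the longest core genes 78.6% were called higher. The SR proteins, hnRNPs and regulators of the middle set were called higher in 41.9% and lower in 3.23%.

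**Figure D3:**
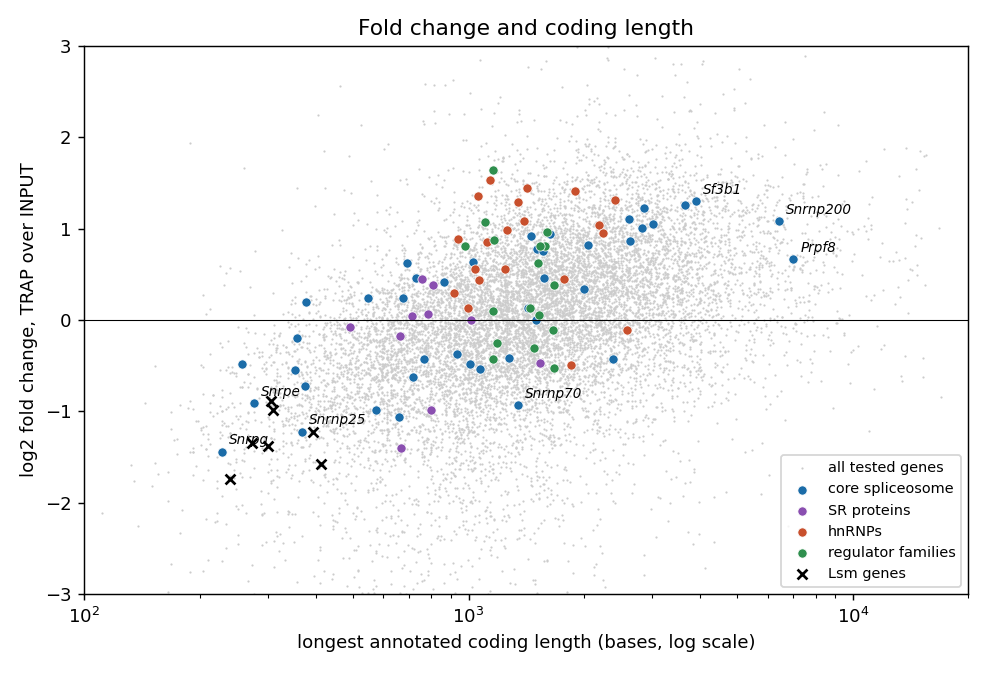
Log2 fold change, TRAP over INPUT, against the longest annotated coding length in bases on a log scale, for all tested genes (grey, those beyond 3 log2 units not drawn), the 4 classes of members (coloured points) and the Lsm genes (crosses). Core spliceosome points climb from Snrpg at 228 bases and -1.44 to Sf3b1 at 3912 bases and 1.30, and the Lsm crosses lie at the lower left between -1.74 and -0.89.

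Core proteins outside the member families were counted by the same bounds. Of 14 with the shortest coding length 10 were called lower and 0 higher (median -0.93), where 40.7% of all genes of that length were lower. The 4 not called were Ppih (-0.21), Syf2 (-0.21), Cwc15 (-0.27) and Bud31 (-0.53). The Lsm proteins form the ring on U6 RNA that matches the Sm ring in shape, and all 7 genes from Lsm2 to Lsm8 were called lower, from -0.89 (Lsm3) to -1.74 (Lsm6). These 7 genes are part of the 10 called lower in the shortest set. When the trend of the log2 values on coding length was taken out of each library, a choice made after seeing the data, 36 members were called higher and 4 lower, where 15.4% and 11.7% of all genes were called. These were partly other members: 28 of the 35 higher calls were kept, 7 lost and 8 gained, and of the 10 lower calls 2 were kept, 8 lost and 2 gained. The lower calls kept were Snrnp70 (-0.94, limma adjusted p = 0.016) and Srsf9 (-0.95, 0.014), and those gained Sf3a1 (-0.78, 0.012) and Srsf11. The higher calls gained were Snrpd3, from 0.20 to 1.02 (0.0017), Snrnp35 (0.85, 0.019), Snrpb2 (0.68, 0.025), Snrpd1, Srsf1, Srsf5, Hnrnph3 (0.72, 0.02) and Hnrnpa0 (0.54, 0.047). Of the core genes that lost a lower call, Snrpg then had -0.30 (limma adjusted p = 0.347), Snrnp25 -0.38 (0.233), U2af1l4 -0.61 (0.065), Snrnp27 -0.43 (0.122) and U2af1 -0.22 (0.45). Snrpe and Sf3b6 changed sign, both at 0.11 (0.73 and 0.699), as did Snrpd1, from -0.20 to 0.66 (0.016). Of those that lost a higher call, Prpf8 had 0.04 (0.914), Snrnp200 0.46 (0.1), Prpf6 0.58 (0.069), Sf3b2 0.47 (0.175), Prpf3 0.55 (0.126) and Sf3a2 0.85 (0.052).

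The 4 pools did not give the same picture of the core spliceosome. VP2.2 had the lowest TRAP minus INPUT difference of the 4 pools in 46 of the 89 members, and in 29 of the 42 core genes. In that pool 24 of the 42 core genes had less in TRAP than in INPUT, against 14 to 17 in the other pools. VP2.11 had the highest difference in 35 members, and 20 members were higher in TRAP in VP2.11 and lower in VP2.2, with 5 the other way round. Snrpc, a U1 protein, was such a gene, with 4.94, 4.09, 4.91 and 5.59 in TRAP and 4.37, 5.38, 4.43 and 4.40 in INPUT, and without VP2.2 its log2 fold change was 0.75 (limma adjusted p = 0.034) in place of 0.24 (0.613). Sf3b5, a small U2 subunit, was higher in TRAP only in VP2.11, with 5.67, 5.49, 5.71 and 7.16 in TRAP and 6.52, 7.13, 6.50 and 5.83 in INPUT, and without that pool its log2 fold change was -1.09 (0.011) in place of -0.48 (0.314). Leaving out VP2.2 raised the core median from 0.24 to 0.50, and leaving out VP2.11 lowered it to 0.12. In VP2.2 the rho of the difference with exon length was 0.67 in the core genes and 0.57 over all tested genes, and it ran from 0.38 to 0.45 and from 0.21 to 0.32 in the other pools.

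**Figure D4:**
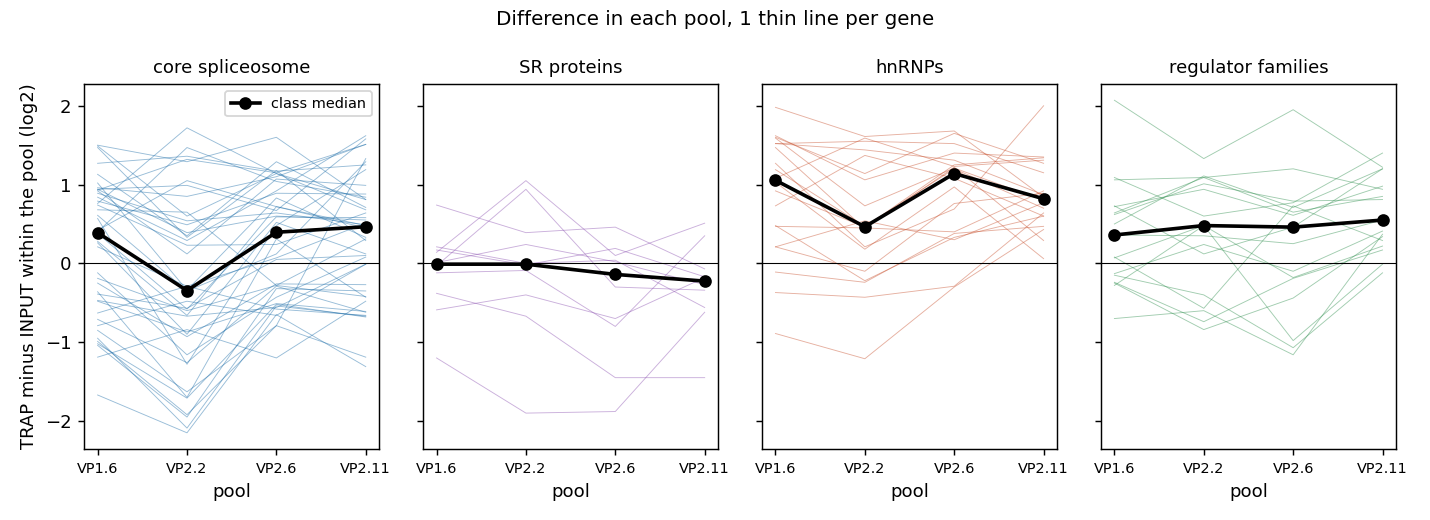
TRAP minus INPUT difference in log2 CPM within each of the 4 pools, with 1 thin line per gene and the class median in black, in 4 panels by class. The pools have no order, and the lines only join values of the same gene. The core spliceosome median dips to -0.34 in VP2.2 and the hnRNP median to 0.46, while the regulator median stays between 0.36 and 0.55.

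Other splicing genes outside the named families were counted from lists of known genes. Of 7 further regulators listed as neuronal, though not all need be restricted to neurons, 4 were higher and 0 lower. The other 3 passed in the fit without the block. Srrm4 and Srrm3, which drive neuronal microexons, were higher by 1.16 and 0.95 log2 units (limma adjusted p = 0.0013 and 0.046), and Rbfox2 and Rbfox1, which bind GCAUG, by 1.07 and 0.87 (0.0018 and 0.0083). Rbfox3, the NeuN antigen, had 0.55 (0.095), Khdrbs2 0.58 (0.092) and Khdrbs3 0.38 (0.196). Of 22 further broad regulators 10 were higher and 1 lower, with Matr3 (1.56) and Sfpq (1.54) the highest. The gene called lower was Qk, the Quaking protein abundant in glia, at -2.30 (0.00013).

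Among 39 further core proteins 12 were higher and 10 lower, with Cdc5l of the Prp19 complex (1.95) and the helicase Ddx46 (1.27) at one end and Lsm6 (-1.74) and Lsm4 (-1.57) at the other. The 10 lower were those of shortest coding length already counted, with the 7 Lsm genes among them. Of 8 kinases that phosphorylate SR proteins, Srpk1 alone was called, at 0.77 (limma adjusted p = 0.014). Of 6 genes of the exon junction complex, which marks spliced mRNA, Upf3b (2.02) and Casc3 (1.17) were higher and Magohb (-0.92) and Rbm8a (-0.65) lower. Each of these counts stands beside the 15.4% of all genes called higher and the 16.8% called lower.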

How the data were processed

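RNA was sequenced as single reads of 75 cycles from 8 libraries, 4 TRAP and 4 INPUT. Per the labels and methods, the authors aligned reads with STAR 2.5.1a to an Ensembl mouse assembly, counted uniquely aligned reads per gene, scaled libraries by TMM, and deposited log2 CPM values per library, 3 columns of them rounded to 3 significant digits. The log2 fold changes with limits, mean log2 expression, p-values, t and B statistics and a linear fold change score that the authors deposited were not used. Read totals were not used here, so no counting interval is given.

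From 14398 entries, 45 repeats of a gene were dropped. The 14249 genes above 1 CPM in 3 or more libraries were tested with limma 3.58.1 (lmFit, eBayes with a trend) in R 4.3.3, with the pool as a block and Benjamini-Hochberg adjustment over all of them. The pool pairs the libraries because both came from 1 homogenate. Same-pool deviations from the fraction means correlated at -0.745 to -0.495, those of different pools at 0.0457 to 0.441. The 2 libraries of a pool thus tended to deviate in opposite directions, and the block rests on the design alone. Where the fractions did not overlap, an exact two-sided permutation test of 4 against 4 gives its smallest p, 0.029. This permutation mixes all 8 libraries and leaves the pairing by pool aside. Fits were tested on simulated data.

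Exon and coding lengths and positions came from GENCODE release M21 (GRCm38), promoters from RefSeq. Exon length was the union of all annotated exons of a gene. It can far exceed 1 transcript, as in Hnrnpa2b1 with 6584 exon bases and a longest coding transcript of 1728 bases. Levels per kilobase, their ranks and the gaps between paralogs depend on this choice of length. Shared sequence was counted in 75-base windows of the longest coding transcript. All members could be named, and per-library values were given for every Celf, Nova, Elavl, Ptbp and Mbnl gene and for the 4 largest called rises and falls of each other class. 1 core gene that this rule names is not reported here and is left out of the plot of fold changes, but is kept in all counts. Snrpc, Sf3b5 and other genes named for a change between settings were chosen after their values were seen. The members and lists were chosen with earlier results of these data known. Alternatives were the fit without the block, library weights, quantile normalization, median centring, other filters, a pseudocount of 1, removal of length trends, a fold threshold and leaving out each pool.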

Additional observations from a re-analysis of the deposited data

Results flagged for a closer look

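In 12 of 178 groups of 4 libraries, 1 library stood far from the other 3 by Dixon's criterion, where chance gives about 8.9 groups. INPUT VP2.2 was that library in 6 of them, all values in log2 CPM. It was high in Snrpc (5.38, others 4.37 to 4.43), Snrpb2 (6.79, others 6.15 to 6.25), Snrpa1 (6.74, others 6.25 to 6.29) and Prpf38a (6.13, others 5.86 to 5.89), and low in Elavl1 (5.57, others 5.83 to 5.88) and Celf1 (6.74, others 7.12 to 7.17). TRAP VP2.11 was high in Sf3b5 (7.16, others 5.49 to 5.71), Hnrnph3 (5.40, others 4.92 to 4.97) and Hnrnpul1 (6.20, others 5.56 to 5.59). TRAP VP2.6 was high in Snrpg (5.51, others 4.96 to 4.99) and low in Prpf39 (3.79, others 4.20 to 4.28) and Mbnl1 (6.29, others 6.71 to 6.77).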

How the results depend on the processing

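Without the pool as a block, 44 members were higher and 17 lower, in place of 35 and 10. Among called members, 17 were higher and 4 lower by 1 log2 unit or more, and the share of all genes at that threshold was not counted. With the coding length trend taken out, a choice made after seeing the data, 36 were higher (28 of the 35 and 8 others) and 4 lower (2 of the 10 and 2 others), and Snrpd1 (0.66), Sf3b6 (0.11) and Snrpe (0.11) changed sign. With the exon length trend taken out, 32 were higher and 10 lower. They held 28 of the 35 higher calls and 6 of the 10 lower calls, and 4 members were gained in each direction. The median of the neuron-enriched regulators was then 0.29 in place of 0.50. Leaving out 1 pool at a time gave 23 to 41 members higher, the lowest without replicate 3 (VP2.6), and 6 to 10 lower, the lowest without replicate 1 (VP1.6). The medians then ran from 0.12 to 0.50 in the core spliceosome and from 0.38 to 0.59 in the neuron-enriched regulators. Of the 45 called members, 18 kept their call in every setting that refitted the genes, 43 kept their direction, and 26 kept their call without each pool in turn. The cause of these changes was not tested. Library weights (41 and 12), quantile normalization (32 and 11), median centring (35 and 9), both filters and the pseudocount (35 and 10) kept both counts within 1.5 times. The median of the core spliceosome was 0.40 with library weights and 0.46 with the coding length trend taken out, in place of 0.24. The 4 pools limit the precision of each value, and read depth was not used.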
